A study of Mus musculus with 42 samples.

Results

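Ribosome footprints of leukaemia cells were compared between mice fed a diet free of branched-chain amino acids (BCAA) and mice fed an amino acid diet, all after the chemotherapy course called 5+3. The comparison takes the 7 footprint libraries of the BCAA-free diet with 5+3 and the 4 of the amino acid diet with 5+3, which are 11 of the 42 libraries of the series. Libraries were assigned to groups by their labels, and each comes from a different mouse. The 11 mRNA libraries of the same mice, and the 5 BCAA-free and 5 amino acid diet footprint libraries given vehicle, stand beside them.

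The cells were acute myeloid leukaemia (AML) driven by MLL-AF9, a fusion of the histone methyltransferase MLL with AF9 that holds myeloid progenitors in an immature, dividing state. All mice received the same leukaemia, taken from 1 terminally ill mouse, expanded in culture and marked with GFP and luciferase, so mice are replicates of the host and not of the disease. Recipients were males labelled wild type, aged 8 to 10 weeks and injected behind the eye with no preconditioning, so the host's own blood cells remained. Both 5+3 groups were given cytarabine, a nucleoside analogue that stops DNA synthesis, in 5 daily doses of 100 mg/kg, and doxorubicin, which traps topoisomerase on DNA, in 3 daily doses of 3 mg/kg that began with it. Mice were killed at maximum response, marrow was crushed, red cells were lysed, and viable GFP-positive cells were sorted.

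A footprint is the stretch of mRNA covered by a ribosome, so a gene's footprint count follows both the amount of its mRNA and how densely ribosomes occupy it. Leucine, isoleucine and valine cannot be made by mammals. In cells, an uncharged tRNA activates the kinase GCN2 (Eif2ak4), which phosphorylates eIF2 and raises translation of the transcription factor ATF4, and ATF4 induces genes of amino acid uptake and synthesis. Leucine is also sensed by Sestrin2 upstream of mTORC1, the kinase complex that favours translation of ribosomal protein mRNAs.

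The 11 libraries held 3387843 to 8863472 counts in the BCAA-free group and 3936208 to 6617330 in the amino acid group, of which 51.7% to 56.1% and 51.7% to 55.5% fell on protein-coding genes. On the first principal component of log2 CPM (counts scaled to the same library total), with 44.7% of the variance, the amino acid libraries lay between -33.3 and -27.0. Of the BCAA-free libraries 6 lay between 13.5 and 26.8, and replicate 2 lay at -2.68. All 15 defining markers of leukaemic and myeloid cells, Mpo, Elane, Kit, Cd34, Ptprc, Itgam, Hoxa9 and Meis1 among them, had counts in every library. Their summed level was 12209 to 15474 CPM in BCAA-free libraries, against 16215 to 19166 CPM in amino acid libraries. Mpo alone, whose values are given below, made up the largest part of this sum. In the test described next, 4 of the 15 were lower and 1 higher, with a median log2 change of -0.15.

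After a filter on low counts, 9481 protein-coding genes were tested with edgeR's quasi-likelihood test. At an adjusted p under 0.05, 2812 genes (29.7%) differed, of which 1346 (14.2%) were higher and 1466 (15.5%) lower in the BCAA-free group. A log2 change is BCAA-free minus amino acid diet, and its median over all tested genes was 0.02. Most differences were small, with 1519 called genes under 1.5-fold, 139 at least 2-fold higher and 270 at least 2-fold lower. The groups did not overlap in 1642 tested genes (17.32%). The counts of members below are to be read against these shares.

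**Figure D1:**
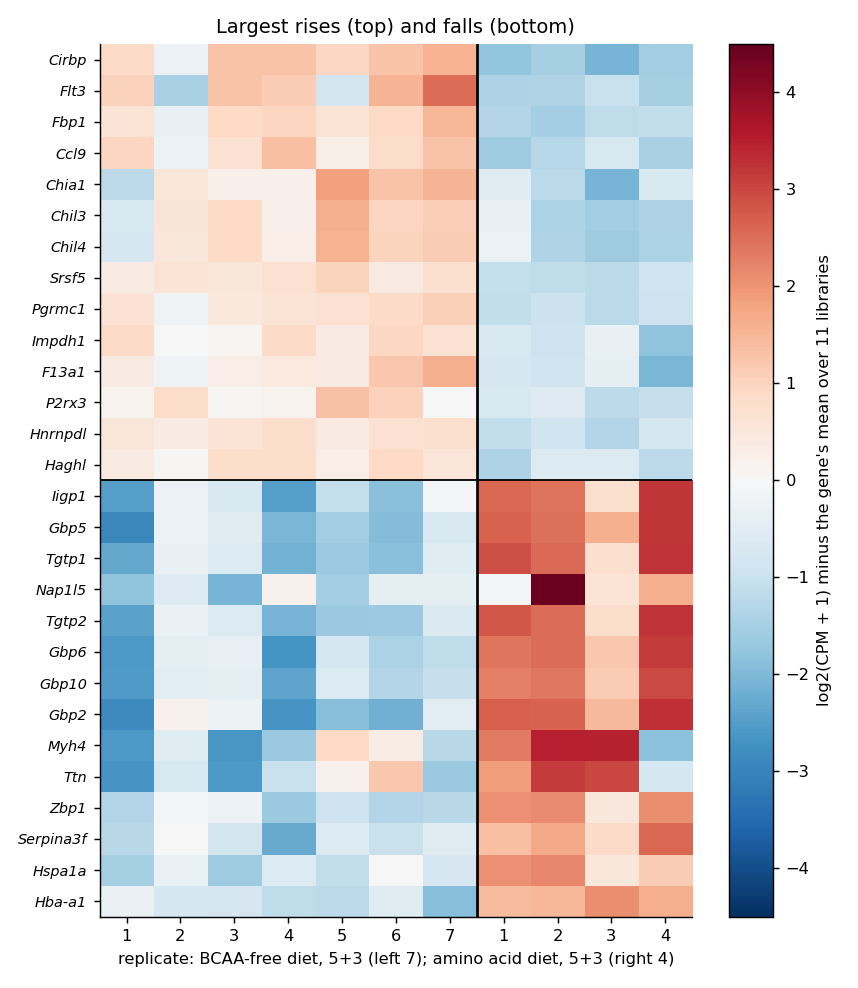
Heat map of the 14 largest rises and the 14 largest falls among called genes with a mean of at least 10 CPM, 1 row per gene and 1 column per footprint library (left 7, BCAA-free with 5+3; right 4, amino acid diet with 5+3). Colour is log2(CPM + 1) minus the gene's mean over the 11 libraries. Guanylate-binding proteins and immunity-related GTPases make up 7 of the 14 falls, Nap1l5 is dark in amino acid replicate 2 alone, and BCAA-free replicate 2 is pale or blue in Cirbp, Flt3, Fbp1 and Ccl9.

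Genes of the interferon response fell furthest. Interferon gamma and type I interferons act through JAK kinases to induce guanylate-binding proteins (GBPs) and immunity-related GTPases, which attack membranes around pathogens, and antiviral sensors. Of 37 tested interferon-stimulated genes 32 fell and 0 rose, with a median log2 change of -1.39 and a range of -3.66 to 0.01. A list added after the values were seen shares members with the first, Gbp2 and Irgm1 among them. All 18 tested GBPs and immunity-related GTPases of the added list fell, with a median of -3.05. The sum over these 18 genes was 249 to 703 CPM in BCAA-free libraries, against 1062 to 2716 CPM in amino acid libraries.

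The promoters of 4 such genes are shown here because their windows hold the interferon-stimulated response element, a site bound by IRF factors. The sequences are RefSeq's on GRCm38.p6, 5′ to 3′ on the gene's strand up to the base before the start, and capitals mark GAAA followed, after any 2 bases, by GAAA on either strand, overlapping matches joined. Gbp2 is chr3:142620543-142620662 (plus), Gbp5 is chr3:142496734-142496933 (plus), Ifit1 is chr19:34640769-34640888 (plus) and Isg15 is chr4:156200819-156200938 (minus).
Gbp2: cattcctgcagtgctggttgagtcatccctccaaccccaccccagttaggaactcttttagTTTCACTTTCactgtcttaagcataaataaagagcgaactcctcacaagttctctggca
Gbp5: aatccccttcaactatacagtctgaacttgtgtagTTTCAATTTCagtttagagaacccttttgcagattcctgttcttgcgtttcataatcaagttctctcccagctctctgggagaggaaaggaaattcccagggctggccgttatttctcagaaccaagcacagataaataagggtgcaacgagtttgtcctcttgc
Ifit1: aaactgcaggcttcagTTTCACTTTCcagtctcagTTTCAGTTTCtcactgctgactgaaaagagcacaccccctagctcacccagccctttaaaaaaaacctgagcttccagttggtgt
Isg15: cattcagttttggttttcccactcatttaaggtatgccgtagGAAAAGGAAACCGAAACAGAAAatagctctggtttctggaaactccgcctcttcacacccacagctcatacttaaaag
Counted over windows from 250 bases before to 50 after the start, 18 of 29 interferon-stimulated genes with a window (62.1%) and 11 of 12 of the GTPases (91.7%) held the motif, against 311 of 7755 tested genes (4.01%). Gbp2, Gbp3, Gbp7, Igtp, Irgm1 and Irgm2 are in both lists and counted in both shares. This motif was chosen after the changes were seen, and a match describes letters, not binding.

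Gbp2, a GTPase of the interferon gamma response, had 4.23, 9.13 and 42.1 CPM (lowest, median and highest of 7) in BCAA-free libraries, against 246, 239, 102 and 369 CPM in amino acid libraries. The groups did not overlap, and the fitted change was 12.6-fold lower (log2 -3.66 ± 0.57 SE, adjusted p = 0.00156). Within the amino acid group replicate 3 had the lowest value of Gbp2, Gbp5, Gbp6, Gbp10, Iigp1, Tgtp1 and Tgtp2. Gbp5, which promotes inflammasome assembly, had 0.564, 2.93 and 8.73 CPM in BCAA-free libraries, against 72.2, 63.2, 34.3 and 107 CPM in amino acid libraries (log2 -3.96 ± 0.46 SE, adjusted p = 0.000297). Iigp1, a GTPase of the vacuole of intracellular parasites, was at 0 in 2 BCAA-free libraries and at most 4.34 CPM in the rest, against 32.3, 29.2, 8.11 and 51.6 CPM in amino acid libraries (log2 -4.01 ± 0.63 SE, adjusted p = 0.00141). The remaining GTPases among the largest falls were Tgtp1 (log2 -3.86), Tgtp2 (-3.82), Gbp6 (-3.79) and Gbp10 (-3.70), each with groups that did not overlap. Tgtp1 with Tgtp2 and Gbp6 with Gbp10 are close paralogs, and how shared reads were counted is not given.

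Antiviral genes moved the same way at lower levels. Isg15, a ubiquitin-like modifier, had 0.909, 2.54 and 5.02 CPM in BCAA-free libraries, against 26.2, 20.2, 10.0 and 22.1 CPM in amino acid libraries (log2 -2.72 ± 0.29 SE, adjusted p = 3.95e-06). Ifit1, which binds RNA lacking cap methylation, had 0.909, 1.63 and 2.61 CPM in BCAA-free libraries, against 13.3, 13.4, 5.25 and 14.1 CPM in amino acid libraries (log2 -2.78 ± 0.30 SE, adjusted p = 2.4e-06). In both genes every BCAA-free library was below every amino acid library. Oas3, an RNA-activated oligoadenylate synthetase, changed by log2 -2.52 ± 0.27, Rtp4 by -2.44 ± 0.26 and the nucleic acid sensor Zbp1 by -2.89 ± 0.36 (adjusted p = 4.58e-06, 1.87e-06 and 0.000123). Irf1, the transcription factor that relays interferon gamma, had the smallest p of the list, with 27.7, 34.1 and 48.8 CPM in BCAA-free libraries, against 113, 117, 88.7 and 135 CPM in amino acid libraries (log2 -1.61 ± 0.14 SE, adjusted p = 2.01e-07). The serpin Serpina3f also fell (log2 -2.85 ± 0.40 SE, adjusted p = 0.000367).

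Genes of MHC class I presentation, which load peptides on class I molecules and are induced by the same interferons, fell in 14 of 17 tested members and rose in 0 (median log2 -0.91). Psmb9, an immunoproteasome subunit, had 33.8, 43.2 and 60.7 CPM in BCAA-free libraries, against 117, 111, 84.9 and 126 CPM in amino acid libraries (log2 -1.25 ± 0.14 SE, adjusted p = 9.26e-06). Nlrc5, the transactivator of class I genes, was at 0.846, 2.61 and 6.55 CPM, against 11.8, 13.0, 8.11 and 16.6 CPM in the amino acid diet (log2 -1.996 ± 0.36 SE, adjusted p = 0.00065). The class I molecule H2-M3 (-1.25 ± 0.22), the peptide transporter Tap1 (-0.91 ± 0.17) and the loading factor Tapbp (-0.75 ± 0.13) fell on the log2 scale too. Psmb9, Nlrc5, H2-M3 and Tapbp did not overlap between groups, while Tap1 did. Of 6 tested MHC class II genes 0 passed by edgeR, with 2 at an unadjusted p under 0.05 and 1 by limma-voom. Ifngr1, a chain of the interferon gamma receptor, rose instead (log2 0.58 ± 0.09 SE, adjusted p = 7.78e-05).

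The mRNA of the same cells fell as well in this programme. In mRNA 13194 genes were tested and 439 (3.33%) differed, 197 (1.49%) higher and 242 (1.83%) lower, with a median standard error of 0.29 against 0.15 in footprints. Of 42 interferon-stimulated genes tested in mRNA 24 fell and 0 rose (median log2 -1.43), as did 13 of 17 GTPases (median -2.43). The mRNA log2 change was -3.01 for Gbp2 (adjusted p = 0.00997), -4.67 for Gbp5 (0.000334), -2.90 for Isg15 (0.00108) and -1.31 for Irf1 (0.000932). Cells of both groups were sorted in bulk, so fewer cells with a high level and less RNA in each cell cannot be told apart.

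**Figure D2:**
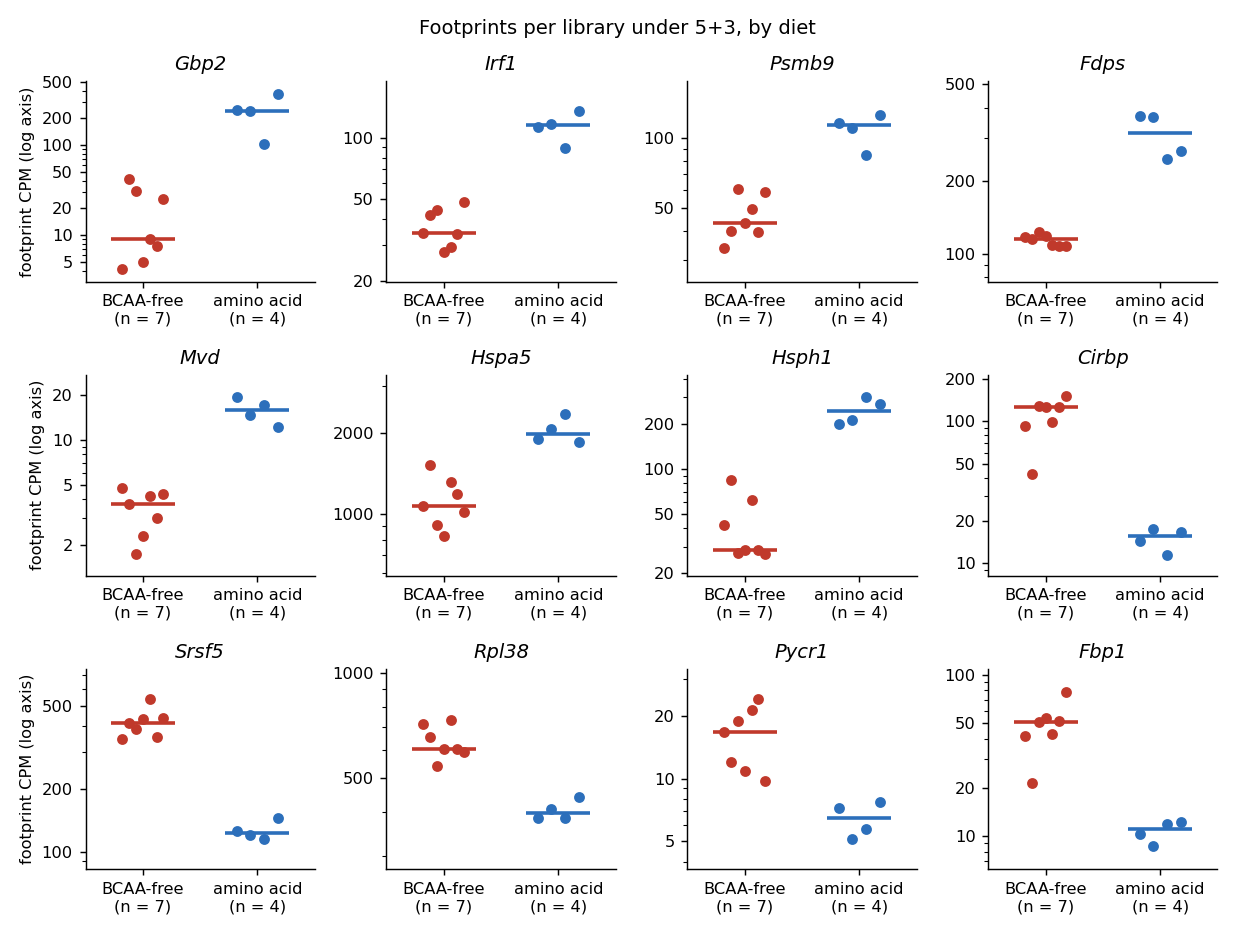
Footprint CPM on log axes for 12 genes, with 1 point per library (left, 7 BCAA-free libraries; right, 4 amino acid libraries, all under 5+3) and a bar at the median. The groups do not overlap in any of the 12 genes, with Gbp2 at most 42.1 CPM in the BCAA-free group and at least 102 CPM in the amino acid group.

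Genes of cholesterol synthesis, which SREBP2 induces when sterols run low, fell in 18 of 24 tested members and rose in 0, with a median log2 change of -0.73 and a range of -2.18 to 0.20. Fdps, which makes farnesyl diphosphate for sterols and prenyl groups, had 107, 115 and 123 CPM in BCAA-free libraries, against 369, 366, 247 and 266 CPM in amino acid libraries. It was 2.74-fold lower with no overlap (log2 -1.45 ± 0.10 SE, adjusted p = 3.81e-09). Mvd, which decarboxylates mevalonate diphosphate, had 1.74, 3.71 and 4.79 CPM in BCAA-free libraries, against 19.4, 14.6, 17.2 and 12.1 CPM in amino acid libraries (log2 -2.18 ± 0.24 SE, adjusted p = 2.4e-06). Squalene epoxidase Sqle changed by log2 -1.53 ± 0.18, the sterol carrier Stard4 by -1.37 ± 0.15 and lanosterol synthase Lss by -1.09 ± 0.13, with adjusted p between 2.95e-06 and 4.98e-06. Neither Sqle, Stard4 nor Lss overlapped between the groups. Fatty acid synthesis fell in 5 of 14 members and rose in 0, with 3 falls without amino acid replicate 1. Its leading members were the desaturases Scd2 (log2 -1.19 ± 0.18 SE, adjusted p = 0.000432), Fads1 (-1.15 ± 0.27) and Scd1 (-1.04 ± 0.24), and only Scd2 of these 3 was free of overlap. In mRNA 3 of 24 cholesterol genes fell, Fdps (-1.42), Mvd (-1.66) and Stard4 (-1.36), each with an adjusted p of 0.000932 to 0.00104. The motif TCACNCCAC of the sterol regulatory element, searched on both strands, was found in 1 of 17 windows (5.88%), against 1.33% of all tested genes.

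Chaperones fell in the endoplasmic reticulum and, for a few strongly inducible members, in the cytosol. The unfolded protein response raises these genes when proteins misfold in the endoplasmic reticulum. Of 28 tested members of its list 16 fell and 0 rose (median log2 -0.41). Hspa5, the reticulum's main chaperone BiP, had 824, 1074 and 1520.0 CPM in BCAA-free libraries, against 1907, 2068, 2358 and 1856 CPM in amino acid libraries (log2 -0.87 ± 0.13 SE, adjusted p = 0.00014). Creld2, a secreted stress-induced protein, had 16.3, 18.5 and 29.5 CPM in BCAA-free libraries, against 45.2, 44.3, 56.3 and 46.9 CPM in amino acid libraries (log2 -1.20 ± 0.15 SE, adjusted p = 7.56e-06). Both genes were free of overlap, as were the disulphide isomerase Pdia4 (-0.70 ± 0.10), the ubiquitin ligase Syvn1 (-0.68 ± 0.11) and Sdf2l1 (-0.60 ± 0.10). In mRNA 1 of the 28 passed, Creld2 (log2 -0.98, adjusted p = 0.021), and the mRNA change of Hspa5 was -0.32 (adjusted p = 0.678).

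Of 20 tested heat shock chaperones 8 fell and 1 rose, or 3 by DESeq2. Hsph1, a nucleotide exchange factor of HSP70 induced by heat shock factor 1, had 27.1, 28.6 and 84.5 CPM in BCAA-free libraries, against 199.8, 213, 303 and 271 CPM in amino acid libraries (log2 -2.47 ± 0.33 SE, adjusted p = 0.000637). The inducible HSP70 gene Hspa1a had 1.99, 4.34 and 8 CPM in BCAA-free libraries, against 36.9, 39.9, 11.9 and 19.3 CPM in amino acid libraries (log2 -2.65 ± 0.39 SE, adjusted p = 0.000487). Its neighbour Hspa1b, a near-identical copy whose reads may be shared, changed by -2.14 ± 0.33. The groups did not overlap in Hsph1, Hspa1a or Hspa1b, and the mRNA of these 3 fell too (log2 -1.40, -3.86 and -3.45). The HSP40 co-chaperone Dnaja1 fell (log2 -0.72 ± 0.12 SE, adjusted p = 0.000409), and the mitochondrial HSP70 Hspa9 rose (log2 0.53 ± 0.11 SE, adjusted p = 0.000883). The heat shock element is TTC, GAA and TTC in turn with any 2 bases between them. Searched on both strands, it was in 4 of 15 windows of the list (26.7%), against 0.593% of all tested genes. Its holders were Chordc1, Hspd1, Hspe1 and Hsph1, and of the chaperones named above only Hsph1 was among them.

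The largest rise belonged to Cirbp, the cold-inducible RNA-binding protein, which binds mRNA and rises on mild cooling. Cirbp had 42.6, 126 and 152 CPM in BCAA-free libraries, against 14.4, 17.4, 11.4 and 16.6 CPM in amino acid libraries, a 7.14-fold rise (log2 2.84 ± 0.36 SE, adjusted p = 0.000453). The lowest BCAA-free library, replicate 2, still stood above the highest amino acid library. Rbm3, the second cold-inducible RNA-binding protein, had 753, 1014 and 1262 CPM in BCAA-free libraries, against 322, 398, 327 and 343 CPM in amino acid libraries (log2 1.55 ± 0.12 SE, adjusted p = 4.92e-08). The mRNA of both rose (log2 3.20 for Cirbp and 0.95 for Rbm3, adjusted p = 0.000478 and 0.0481).

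The list of SR splicing factors, which also holds these 2 cold-inducible genes, had 16 tested members with 4 higher and 2 lower. It had 5 lower without BCAA-free replicate 1 or 2, and 6 lower with all genes of the table, pseudogenes included, in the normalisation and test. Srsf5, a serine and arginine-rich splicing factor, had 345, 412 and 537 CPM in BCAA-free libraries, against 125, 120.1, 115 and 144 CPM in amino acid libraries (log2 1.71 ± 0.12 SE, adjusted p = 3.68e-09). Hnrnpdl, an RNA-binding protein outside the list, had 262, 309.5 and 351 CPM in BCAA-free libraries, against 94.2, 108, 82.0 and 118 CPM in amino acid libraries (log2 1.61 ± 0.11 SE, adjusted p = 3.68e-09). Both genes had groups apart, and neither mRNA change passed (log2 0.84 and 0.59, adjusted p = 0.156 and 0.213). Srsf3 was slightly higher (log2 0.44 ± 0.08 SE, adjusted p = 0.000377), while Srsf10, which represses splicing after heat shock, fell (log2 -0.67 ± 0.14 SE, adjusted p = 0.00197). The labels state that cells were lysed with cycloheximide after sorting at 4 °C, and any handling difference between the groups was not recorded in the sources used here.

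**Figure D3:**
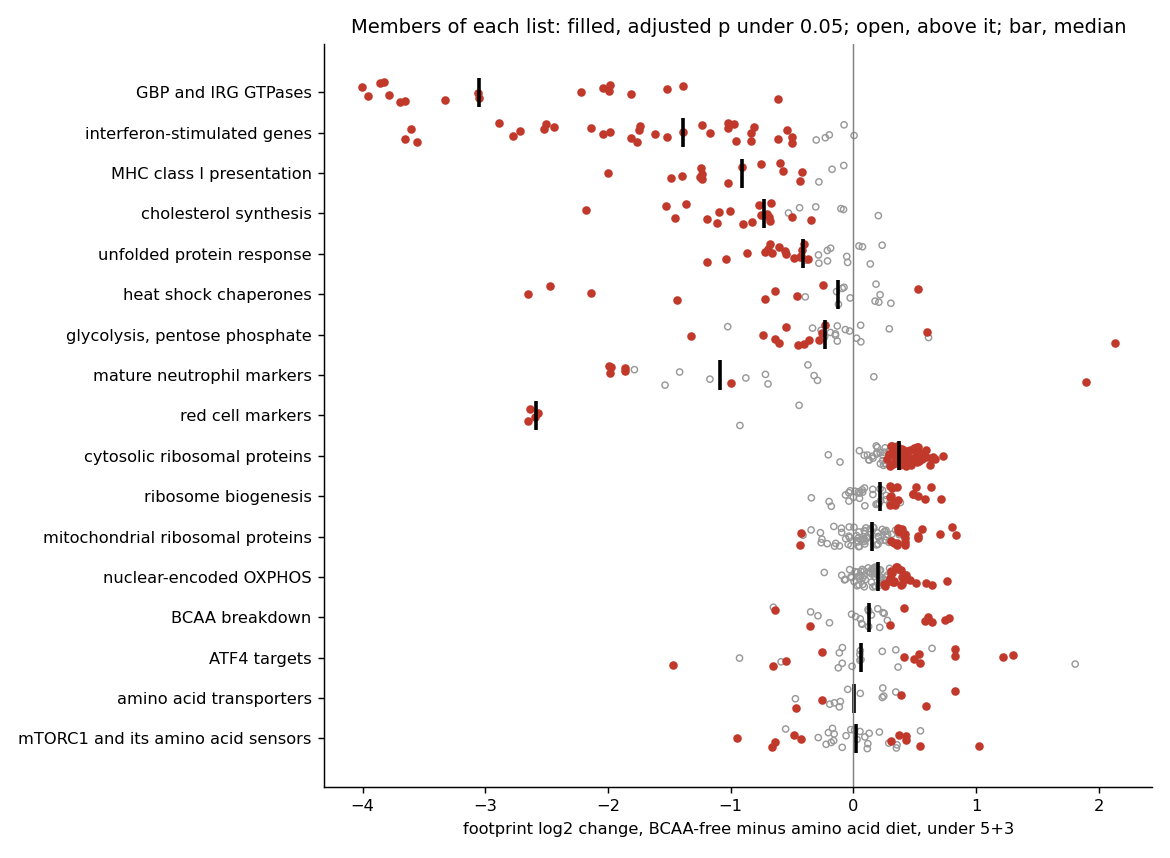
Footprint log2 change, BCAA-free minus amino acid diet under 5+3, of every tested member of 17 lists (filled points, adjusted p under 0.05; open points, above it; bar, the list's median). The upper 9 lists have medians below 0, down to -3.05 for the GTPases, and the cytosolic ribosomal proteins centre on 0.37 in a narrow band.

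Ribosomal protein footprints rose together by a small amount. Of 85 tested cytosolic ribosomal proteins 60 rose and 0 fell, with a median log2 change of 0.37 and a range of -0.20 to 0.73. Rpl38, a large-subunit protein, had 543, 606 and 733 CPM in BCAA-free libraries, against 385, 408, 386 and 443 CPM in amino acid libraries (log2 0.65 ± 0.09 SE, adjusted p = 4.9e-05). The groups were separate in Rpl38, and likewise in Rpl36 (0.63 ± 0.11), Rpl32 (0.56 ± 0.10) and Rpl24 (0.53 ± 0.09). A pseudogene row of Rpl38 held nearly the same counts in all 11 libraries, so reads matching several copies appear to be counted in each, and values of this family are not fully independent. In mRNA the 84 tested members had a median of -0.13 and 0 passed by edgeR, by limma-voom, by DESeq2 or at an unadjusted p under 0.05. The summed footprint level of the 85 genes was 42490 to 59880 CPM in BCAA-free libraries, against 37690 to 43810 CPM in amino acid libraries, so the sums overlapped in BCAA-free replicate 3.

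Genes that build and run the translation machinery leaned the same way. Ribosome biogenesis had 16 of 44 members higher and 0 lower (median 0.22), and translation factors had 15 of 46 higher and 2 lower (median 0.17). Nucleolin, Ncl, which organises ribosomal RNA synthesis, had 2559.9, 3073 and 3838 CPM in BCAA-free libraries, against 1910.0, 2140.1, 2199 and 2125 CPM in amino acid libraries (log2 0.59 ± 0.12 SE, adjusted p = 0.000859). Wdr12 (0.63 ± 0.08) and Pes1 (0.49 ± 0.09), partners in a large-subunit assembly complex, and the snoRNP protein Nhp2 (0.71 ± 0.12) were higher with no overlap. Among initiation factors Eif1a (0.69 ± 0.13) and Eif4h (0.41 ± 0.09) rose without overlap. In mRNA 0 of 44 biogenesis genes passed by edgeR, with 18 higher at an unadjusted p under 0.05 and 9 by DESeq2, and the mRNA median was 0.42. Leaving out amino acid replicate 1 lowered the biogenesis count to 10 of its tested members, leaving out BCAA-free replicate 2 gave 16 higher and 3 lower, and with all genes of the table in the normalisation and test 8 were higher.

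Mitochondrial genes of the nucleus rose in part. Of 82 mitochondrial ribosomal proteins 20 rose and 2 fell (median 0.15), and of 80 nuclear-encoded subunits of oxidative phosphorylation 25 rose and 0 fell (median 0.20). Mrps9 (log2 0.80 ± 0.11 SE, adjusted p = 2.45e-05), Mrpl52 (0.84 ± 0.16) and Mrpl9 (0.71 ± 0.14) led the mitochondrial ribosome. The ATP synthase c subunit gene Atp5g2, whose row is nearly equal to those of 2 pseudogenes, changed by 0.64 ± 0.10, and the ATP synthase subunit Atp5mpl by 0.51 ± 0.11. Of 13 mitochondrially encoded proteins 0 passed by edgeR, limma-voom or DESeq2, with 1 lower at an unadjusted p under 0.05 (median -0.15). Fewer passed with all genes of the table in the normalisation and test, at 8 higher and 5 lower mitochondrial ribosomal proteins and 15 higher and 1 lower subunits, and without the shallowest library of each group, at 11 higher ribosomal proteins and 12 higher subunits. The count for mitochondrial ribosomal proteins fell to 12, 10 and 13 without amino acid replicate 2, 3 and 4, and that for oxidative phosphorylation to 15 and 14 without amino acid replicate 2 and 3.

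Genes named for amino acid supply moved in both directions. The promoters of 2 ATF4 targets are shown because the C/EBP-ATF response element core, TGATGNAA on either strand, lies upstream of their start. Pycr1, which makes proline, is chr11:120643749-120643868 (minus), and Asns, which makes asparagine, is chr6:7693210-7693329 (minus), both GRCm38.p6 from RefSeq, 5′ to 3′, with the core in capitals.
Pycr1: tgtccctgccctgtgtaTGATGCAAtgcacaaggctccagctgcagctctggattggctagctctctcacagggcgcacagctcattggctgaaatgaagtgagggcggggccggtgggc
Asns: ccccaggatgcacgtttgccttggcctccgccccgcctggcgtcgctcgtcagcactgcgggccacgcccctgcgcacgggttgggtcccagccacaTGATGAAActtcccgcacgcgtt
The core was in 6 of 25 windows of the ATF4 targets (24%: Asns, Herpud1, Jdp2, Pycr1, Slc1a4 and Slc7a11), against 202 of 7755 tested genes (2.6%).

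Of 28 tested ATF4 targets 8 rose and 4 fell, with a median log2 change of 0.06, and without amino acid replicate 4 the count of rises was 5. Pycr1 had 9.76, 16.6 and 24.0 CPM in BCAA-free libraries, against 7.22, 5.14, 5.72 and 7.72 CPM in amino acid libraries (log2 1.30 ± 0.25 SE, adjusted p = 0.00065), with no overlap. The mitochondrial enzymes of one-carbon metabolism, Shmt2 (0.54 ± 0.11) and Mthfd1l (0.49 ± 0.09), rose. Asns had 162, 209.8 and 367 CPM in BCAA-free libraries, against 199, 194, 166 and 161 CPM in amino acid libraries, and did not pass (log2 0.36 ± 0.22 SE, adjusted p = 0.243). Cebpg, the C/EBP partner of ATF4, fell to 2.93, 5.68 and 7.05 CPM in BCAA-free libraries, against 9.88, 13.8, 18.6 and 19.3 CPM in amino acid libraries (log2 -1.47 ± 0.22 SE, adjusted p = 6.87e-05). The other rises were the serine synthesis genes Phgdh (1.22), Psph (0.83) and Psat1 (0.42), Slc7a5 (0.83) and Eif4ebp1 (0.55), and the other falls were a second C/EBP factor, Cebpb (-0.65 ± 0.14), Herpud1 (-0.55), of protein disposal in the endoplasmic reticulum, and Slc38a2 (-0.25). Atf4 itself had 19.9, 33.6 and 48.8 CPM in BCAA-free libraries, against 45.6, 30.4, 57.2 and 38.6 CPM in amino acid libraries (log2 -0.32 ± 0.25 SE, adjusted p = 0.37). Footprints of Atf4 include those on its upstream reading frames if the annotation counts them, which the files do not show.

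Among regulators of the integrated stress response 1 of 14 rose and 2 fell. Eif2ak4, the kinase GCN2 that senses uncharged tRNA, had 12.7, 15.0 and 29.3 CPM in BCAA-free libraries, against 30.0, 28.8, 34.8 and 30.9 CPM in amino acid libraries (log2 -0.85 ± 0.18 SE, adjusted p = 0.00201). Its highest BCAA-free value, in replicate 2, reached into the amino acid range, and the other 6 BCAA-free libraries lay below it. Of the eIF2B exchange factor's subunits Eif2b3 rose (0.54 ± 0.12) and Eif2b4 fell (-0.45 ± 0.14), the fall not passing without amino acid replicate 1 (adjusted p up to 0.0617). Without BCAA-free replicate 2, or with all genes of the table in the normalisation and test, the falls were 4. Ddit3, the stress factor CHOP, was under the filter, with 1 to 5 counts in BCAA-free libraries, against 2 to 9 counts in amino acid libraries. Sesn2, the leucine sensor, had 3.98, 7.33 and 11.5 CPM in BCAA-free libraries, against 7.6, 7.9, 4.77 and 6.07 CPM in amino acid libraries (log2 0.05 ± 0.27 SE, adjusted p = 0.899), and its sign changed in 7 of 19 alternatives.

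Of 16 tested amino acid transporters 3 rose and 2 fell. Slc7a5, the light chain of the transporter LAT1 that brings leucine, isoleucine and valine into cells, had 76.1, 129 and 147 CPM in BCAA-free libraries, against 77.5, 67.2, 70.1 and 56.6 CPM in amino acid libraries (log2 0.83 ± 0.15 SE, adjusted p = 0.000525). The lowest BCAA-free value fell inside the amino acid range and the other 6 lay above it. Slc3a2, its heavy chain, did not pass (log2 0.24 ± 0.11 SE, adjusted p = 0.0957). The glutamine transporter Slc1a5 (0.59 ± 0.12) and the taurine transporter Slc6a6 (0.39 ± 0.13) rose, and the aromatic amino acid transporter Slc16a10 (-0.46 ± 0.13) and the glutamine transporter Slc38a2 (-0.25 ± 0.09) fell. The calls of Slc6a6 and Slc38a2 were lost without any of 5 or 6 single libraries, amino acid replicates 1 and 3 among them (adjusted p up to 0.23 and 0.165 over the alternatives). Of 21 transporters tested in mRNA 0 passed by edgeR, with 5 at an unadjusted p under 0.05, 1 by limma-voom and 3 by DESeq2.

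Breakdown of the branched-chain amino acids begins with transamination by Bcat1 or Bcat2 and goes on through the branched-chain ketoacid dehydrogenase, of which Bckdha, Bckdhb and Dbt are subunits and Bckdk the inhibiting kinase. Of 27 tested genes of the pathway 7 rose and 2 fell, with a median log2 change of 0.13. Bcat1 was under the filter, with 0 to 9 counts in BCAA-free libraries, against 1 to 4 counts in amino acid libraries. Bcat2 (log2 -0.19 ± 0.10 SE, adjusted p = 0.15) and Bckdk (log2 0.28 ± 0.12 SE, adjusted p = 0.0827) did not pass. Without BCAA-free replicate 2 the falls of the pathway were 4, and with all genes of the table in the normalisation and test 5 rose and 6 fell. Bckdha had 46.7, 88.4 and 97.0 CPM in BCAA-free libraries, against 61.9, 53.7, 43.9 and 46.4 CPM in amino acid libraries (log2 0.64 ± 0.18 SE, adjusted p = 0.0127), and Dbt had 24.4, 32.9 and 35.5 CPM, against 19.4, 21.3, 17.6 and 15.2 CPM in the amino acid diet (log2 0.74 ± 0.15 SE, adjusted p = 0.000859). Dbt was free of overlap, and 1 BCAA-free library of Bckdha fell within the amino acid range. Bckdha lost its call without the shallowest library of each group (adjusted p up to 0.105 over the alternatives). Further along, the hydratase Echs1 (0.78 ± 0.12), the dehydrogenase Hadh (0.61 ± 0.11) and the propionyl-CoA carboxylase subunit Pccb (0.41 ± 0.11) rose, and the epimerase Mcee fell (-0.64 ± 0.15). Echs1 and Hadh also serve fatty acid oxidation. In mRNA 0 of 28 passed by edgeR, with 9 higher at an unadjusted p under 0.05, 1 passing by limma-voom and 3 by DESeq2. The mRNA median of the pathway was 0.32.

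Of 23 cytosolic tRNA synthetases and their scaffold proteins 2 rose and 1 fell. Lars, which charges leucine, had 307, 341 and 481 CPM in BCAA-free libraries, against 296, 269, 286 and 264 CPM in amino acid libraries (log2 0.42 ± 0.12 SE, adjusted p = 0.0123), with no overlap, though not past the threshold without amino acid replicate 2 or 4 (adjusted p up to 0.0681 over the alternatives). The synthetases of the remaining branched-chain amino acids did not pass, with -0.39 ± 0.15 for isoleucine's Iars (adjusted p = 0.0568) and 0.08 ± 0.09 for valine's Vars (0.528). Iars was past the threshold in 8 of the 20 alternatives run, as without BCAA-free replicate 2 or 5. Mars, for methionine, fell (-0.47 ± 0.11) and the scaffold protein Aimp1 rose (0.36 ± 0.10), and Aimp1 did not pass without amino acid replicate 3 (0.0544). The falls of the list were 4 without BCAA-free replicate 2, 3 without BCAA-free replicate 5, 4 with no filter on low counts, and 3 with all genes of the table or with all 4 footprint groups in 1 fit.

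In the mTORC1 list 6 of 34 rose and 5 fell. Nprl2, a subunit of GATOR1, which inhibits mTORC1 when amino acids are low, had 7.05, 9.5 and 10.3 CPM in BCAA-free libraries, against 16.3, 16.6, 17.2 and 18.5 CPM in amino acid libraries (log2 -0.95 ± 0.16 SE, adjusted p = 0.000198). Lamtor3, part of the lysosomal Ragulator (-0.64 ± 0.13), Rptor (-0.48 ± 0.13) and Mtor (-0.43 ± 0.12), the scaffold and the kinase of the complex, fell. The Rag GTPase Rraga (0.37 ± 0.10) and the translation repressor Eif4ebp1 (0.55 ± 0.19) rose, Eif4ebp1 losing its call in 11 of 20 alternatives (adjusted p up to 0.153). The number of rises was 2 or 3 when BCAA-free replicate 5 or amino acid replicate 1, 2 or 3 was left out, 3 without the shallowest library of each group and 2 with all genes of the table in the normalisation and test.

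Glycolysis and the pentose phosphate pathway fell in 11 of 29 members and rose in 2, and the falls numbered 7 without amino acid replicate 1 or 2. Pfkl, the liver-type phosphofructokinase that commits glucose to glycolysis, had 42.0, 51.0 and 69.9 CPM in BCAA-free libraries, against 152, 137, 124 and 138 CPM in amino acid libraries (log2 -1.32 ± 0.12 SE, adjusted p = 1.61e-07). Hexokinase Hk3 (-0.64 ± 0.09), platelet-type phosphofructokinase Pfkp (-0.73 ± 0.12) and aldolase Aldoa (-0.45 ± 0.09) fell too, and these 4 enzymes did not overlap between groups. Among the rises was Fbp1, fructose bisphosphatase of gluconeogenesis, which works against phosphofructokinase. Fbp1 had 21.4, 51.2 and 78.1 CPM in BCAA-free libraries, against 10.3, 8.69, 11.9 and 12.1 CPM in amino acid libraries (log2 2.13 ± 0.33 SE, adjusted p = 0.000767), and its mRNA rose by log2 2.44 (adjusted p = 0.000334).

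Purine and pyrimidine synthesis rose in 7 of 26 members and fell in 2. Impdh1, an isoform of the enzyme that commits inosine monophosphate to guanine nucleotides, had 9.39, 15.7 and 18.5 CPM in BCAA-free libraries, against 5.32, 4.35, 7.15 and 1.93 CPM in amino acid libraries (log2 1.66 ± 0.29 SE, adjusted p = 0.000395). Adss, on the branch to adenine nucleotides (0.77 ± 0.09), and Gmps, which makes guanosine monophosphate (0.54 ± 0.08), rose, whereas thymidylate synthase Tyms fell (log2 -0.50 ± 0.09 SE, adjusted p = 0.000357). Without amino acid replicate 2 the rises of the nucleotide list were 4, and without BCAA-free replicate 2 the falls were 4. With all genes of the table in the normalisation and test 4 rose and 4 fell. Among antioxidant genes 7 of 27 rose and 3 fell, or 5 and 1 without amino acid replicate 2 and 4 and 4 with all genes of the table, with Sod1 (log2 0.75 ± 0.10 SE, adjusted p = 1.11e-05), Prdx1 (0.73 ± 0.10) and Prdx6 (0.41 ± 0.09) higher.

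Cell cycle genes differed in small numbers. Of 40 genes of G2 and mitosis 8 fell and 1 rose, of 43 of S phase 5 fell and 4 rose, and of 64 replication-dependent histones 0 passed by edgeR, limma-voom or DESeq2, with 3 higher at an unadjusted p under 0.05. Many histone rows are copies of each other. The proliferation antigen Mki67 was at 763, 913 and 1474 CPM in BCAA-free libraries, against 1489.8, 1339.5, 1627 and 1186 CPM in amino acid libraries (log2 -0.46 ± 0.16 SE, adjusted p = 0.0458), with overlap, and lost its call in 10 of 20 alternatives, 8 of them leaving out a single library (adjusted p up to 0.182). The condensin subunit Ncapg (log2 -0.69 ± 0.12 SE, adjusted p = 0.000547) and the checkpoint kinase Bub1 (-0.49 ± 0.11) fell, as did the replication factor Cdc45 (-0.64 ± 0.13), and thymidine kinase Tk1 rose (0.44 ± 0.10). Without BCAA-free replicate 2 the falls in G2 and mitosis numbered 15, and without amino acid replicate 1, or without the shallowest library of each group, they numbered 5. In S phase 3 rose and 10 fell with all genes of the table in the normalisation and test.

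Targets of p53, which doxorubicin and cytarabine engage through DNA damage, showed 3 rises and 1 fall among 23, or 1 rise without amino acid replicate 1 or 4. Pmaip1, the BH3-only killer NOXA, had 13.5, 17.2 and 22.2 CPM in BCAA-free libraries, against 9.88, 8.69, 5.25 and 8 CPM in amino acid libraries (log2 1.09 ± 0.18 SE, adjusted p = 0.000227). The nuclease Aen rose (0.46 ± 0.14), though not without amino acid replicate 1 or 4 (adjusted p up to 0.106), and Apaf1, the scaffold of the apoptosome, fell (log2 -0.73 ± 0.12 SE, adjusted p = 0.000284). Cdkn1a, the cell cycle inhibitor p21, had 14.7, 24.8 and 34.7 CPM in BCAA-free libraries, against 21.7, 31.2, 12.4 and 22.1 CPM in amino acid libraries (log2 0.22 ± 0.25 SE, adjusted p = 0.534), with wide overlap.

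Of 16 tested genes of the MLL-AF9 programme 6 rose and 0 fell, or 3 without amino acid replicate 4. Hmgb3, a chromatin protein of haematopoietic progenitors, had 89.5, 112 and 136 CPM in BCAA-free libraries, against 50.9, 50.2, 48.6 and 60.7 CPM in amino acid libraries (log2 1.06 ± 0.11 SE, adjusted p = 1.87e-06), and its mRNA rose by log2 1.41 (adjusted p = 0.000932). Eya1 (0.77 ± 0.14), the kinase Cdk6 (0.47 ± 0.09), Cdk9 (0.33 ± 0.10) and Myc (0.29 ± 0.11) rose less, Myc just inside the threshold (adjusted p = 0.0497). Myc lost its call in 16 of 20 alternatives and Cdk9 in 3, one of them without amino acid replicate 4 (adjusted p up to 0.418 and 0.0926). The programme's core homeobox genes did not pass, with Hoxa9 at 55.3, 68.3 and 82.7 CPM in BCAA-free libraries, against 50.9, 68.0, 54.4 and 54.1 CPM in amino acid libraries (log2 0.25 ± 0.12 SE, adjusted p = 0.138), and Meis1 at 67.4, 76.2 and 90.4 CPM, against 72.9, 85.7, 67.7 and 82.5 CPM in the amino acid diet (log2 0.01 ± 0.10 SE, adjusted p = 0.937). The largest change of the list was in Flt3, a receptor tyrosine kinase of early progenitors, with 2.84, 22.3 and 58.5 CPM in BCAA-free libraries, against 3.04, 3.16, 4.29 and 2.76 CPM in amino acid libraries (log2 2.73 ± 0.91 SE, adjusted p = 0.0498). BCAA-free replicates 2 and 5 had the 2 lowest Flt3 values of their group, and only replicate 2 lay inside the amino acid range. The call was lost in 13 of 20 alternatives, 9 of them leaving out a single library (adjusted p up to 0.315), while the Flt3 mRNA rose by log2 2.69 (adjusted p = 0.0123). Of 20 tested cytokine and growth factor receptors 4 rose and 2 fell (median log2 0.08), or 2 and 2 without amino acid replicate 2. Among receptors outside the MLL-AF9 list, Kit rose (log2 0.83 ± 0.25 SE, adjusted p = 0.0312) and Il3ra rose (0.85 ± 0.23). Csf1r, the receptor of macrophage colony-stimulating factor and also outside that list, fell (log2 -0.84 ± 0.24 SE, adjusted p = 0.0176). Il3ra did not pass by limma-voom (adjusted p up to 0.0574 over the alternatives). Kit did not pass without BCAA-free replicate 6 or amino acid replicate 1, 2 or 3 (adjusted p up to 0.0945), nor Csf1r without amino acid replicate 1 or 4 (up to 0.0611).

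A few genes of monocytes and macrophages were among the largest rises, while the median log2 change of 18 tested markers of these cells was 0.004. Ccl9, a chemokine of myeloid cells, had 36.9, 79.0 and 115 CPM in BCAA-free libraries, against 14.1, 17.8, 26.7 and 15.4 CPM in amino acid libraries (log2 2.10 ± 0.36 SE, adjusted p = 0.00216). F13a1, a coagulation factor subunit of monocytes and platelets, had 167, 245 and 591 CPM in BCAA-free libraries, against 111, 101, 144 and 44.7 CPM in amino acid libraries (log2 1.64 ± 0.44 SE, adjusted p = 0.02). Both were free of overlap. The chitinase-like genes Chil3 and Chil4, which are close paralogs, changed by 1.89 ± 0.46 and 1.86 ± 0.46, and the chitinase Chia1 by 2.04 ± 0.68. Chil3 had 591, 1819.6 and 3079 CPM in BCAA-free libraries, against 782, 369, 332 and 375 CPM in amino acid libraries, with amino acid replicate 1 inside the BCAA-free range. The calls of Chil3 and Chil4 were lost without the shallowest library of each group (adjusted p of Chil3 up to 0.226 over the alternatives). Without amino acid replicate 2 the call of F13a1 was lost, without amino acid replicate 4 that of Chil4, and in 13 of 20 alternatives that of Chia1 (adjusted p up to 0.115, 0.256 and 0.204). Over the 22 monocyte and macrophage markers the summed level was 1011 to 2158 CPM in BCAA-free libraries, against 1158 to 1631 CPM in amino acid libraries, and 3 of 18 tested members rose and 2 fell, with 1 rise without amino acid replicate 2 and 4 falls without BCAA-free replicate 3.

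Differentiation factors and granule genes of the neutrophil line moved in both directions. Of 14 tested lineage transcription factors 5 fell and 1 rose, or 3 and 0 without amino acid replicate 1. Of 12 tested primary granule proteins 3 fell and 2 rose (median log2 -0.26), and 6 fell without BCAA-free replicate 5, with no filter on low counts, or with all genes of the table, where 0 rose. Cebpe, which drives late granulocyte maturation, had 19.0, 31.3 and 45.6 CPM in BCAA-free libraries, against 72.9, 59.7, 58.7 and 63.5 CPM in amino acid libraries (log2 -0.9995 ± 0.16 SE, adjusted p = 0.000183). Cebpd fell as well (log2 -0.86 ± 0.14 SE, adjusted p = 0.000218). Myeloperoxidase, Mpo, had 6760.3, 7877 and 8754 CPM in BCAA-free libraries, against 11355, 11408, 12147 and 9369.8 CPM in amino acid libraries (log2 -0.50 ± 0.12 SE, adjusted p = 0.00266), and the histidine decarboxylase Hdc (-0.67 ± 0.08) and the granule protease Prss57 (-0.72 ± 0.17) fell, while cathepsin G, Ctsg (0.33 ± 0.11), and the glutathione transferase Gstm1 (0.33 ± 0.10) rose. Stefins, cysteine protease inhibitors of mature neutrophils, fell in 8 of 9 tested members in a list added after the values were seen. The falls numbered 5 without amino acid replicate 1 and 0 with the replicate number as a block. Stfa2 had 8, 19.5 and 52.6 CPM in BCAA-free libraries, against 165, 118, 53.4 and 114 CPM in amino acid libraries (log2 -1.98 ± 0.48 SE, adjusted p = 0.0131). The metalloprotease Mmp9 fell (log2 -1.99 ± 0.55 SE, adjusted p = 0.0234), but not without amino acid replicate 1 or 4 (adjusted p up to 0.296). Under vehicle 6 of 9 stefins fell and 0 of 9 departed between treatments, by edgeR, limma-voom or at an unadjusted p under 0.05.

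Markers of other cells moved beside these results. Mature neutrophil markers summed to 1110 to 4740 CPM in BCAA-free libraries, against 2396 to 6723 CPM in amino acid libraries, with 6 of 18 tested members lower and 1 higher. The falls numbered 13 without BCAA-free replicate 3, 10 with all 4 footprint groups in 1 fit and 3 without amino acid replicate 1 or 4. Red cell markers summed to 133 to 275 CPM in BCAA-free libraries, against 381 to 507 CPM in amino acid libraries, and the 4 globin genes were the 4 of 6 tested members that fell. Hbb-bs, the adult beta globin, had 3.79, 8.18 and 13.9 CPM in BCAA-free libraries, against 54.0, 39.5, 65.8 and 52.4 CPM in amino acid libraries (log2 -2.57 ± 0.24 SE, adjusted p = 6.09e-06), and Hba-a1, an alpha globin whose row nearly equals that of Hba-a2, changed by -2.65 ± 0.20. Markers of stroma and bone summed to 301 to 401 CPM in BCAA-free libraries, against 409 to 440 CPM in amino acid libraries, with no overlap. Of 3 tested stromal members the collagen gene Col1a1 (log2 -2.003) and smooth muscle actin Acta2 (-0.26) fell and the receptor Pdgfrb (2.64) rose. The stromal falls numbered 0 to 2 with 1 library left out and 7 of 15 with no filter on low counts. The median of the list ranged from -1.33 to 1.15 over the alternatives. Acta2 alone held 270.0 to 382 CPM in BCAA-free libraries, against 390.1 to 406 CPM in amino acid libraries. T and NK cell markers summed to at most 16.7 CPM and 17.4 CPM, B and plasma cell markers to at most 27.6 CPM and 19.0 CPM, and endothelial markers to at most 20.0 CPM and 10.5 CPM in the BCAA-free and the amino acid libraries. Monocyte, neutrophil and stefin genes can be expressed by the leukaemia itself. The part of other cells in the interferon, granule and globin results was not tested.

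Skeletal muscle genes stood out among the falls and were listed after this was seen. Of 10 tested muscle genes 5 fell, with Myh4, a fast myosin heavy chain, at 0.249, 2.17 and 13.0 CPM in BCAA-free libraries, against 37.2, 85.7, 83.5 and 1.1 CPM in amino acid libraries (log2 -3.62 ± 0.97 SE, adjusted p = 0.0208), and Ttn, the giant sarcomere protein titin, at 2.82, 10.9 and 55.0 CPM, against 86.2, 212, 189.8 and 12.7 CPM in the amino acid diet (log2 -2.98 ± 0.84 SE, adjusted p = 0.0259). Amino acid replicate 4 lay inside the BCAA-free range in both. The number of falls was 1 without amino acid replicate 2 or 3, 3 without BCAA-free replicate 4, 9 without amino acid replicate 4, 11 with no filter on low counts, and 0 by limma-voom or without the shallowest library of each group. In mRNA the 10 tested muscle genes had a median log2 change of 0.18 and 0 passed by edgeR, with 2 at an unadjusted p under 0.05 and 1 by DESeq2. Summed over the list, muscle footprints were 650 to 1039 CPM in BCAA-free libraries, against 874 to 1386 CPM in amino acid libraries. These sums overlapped, whereas the median footprint log2 change of the 10 tested genes was -1.95 (range -3.62 to 0.07). The sum therefore does not follow the median member.

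A few large changes lay outside the lists. Pgrmc1, a haem-binding membrane protein, had 28.8, 50.8 and 68.8 CPM in BCAA-free libraries, against 14.4, 16.2, 13.4 and 16.6 CPM in amino acid libraries (log2 1.71 ± 0.20 SE, adjusted p = 1.1e-05). Haghl, an enzyme of the glyoxalase family (log2 1.60 ± 0.21 SE, adjusted p = 1.97e-05), and P2rx3, an ATP-gated channel (log2 1.61 ± 0.31 SE, adjusted p = 0.00101), rose at low levels without overlap. Nap1l5, a relative of histone chaperones, had 1.49, 6.11 and 10.9 CPM in BCAA-free libraries, against 9.12, 224, 15.3 and 31.5 CPM in amino acid libraries (log2 -3.84 ± 0.96 SE, adjusted p = 0.0152), and amino acid replicate 2 alone held the value of 224 CPM. Without that library the change of Nap1l5 was -1.97, and by limma-voom the call was lost (adjusted p up to 0.0812 over the alternatives).

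Several lists moved little. The TCA cycle had 5 of 29 members higher, Pdha1 of pyruvate dehydrogenase the first by p (log2 0.52 ± 0.08 SE, adjusted p = 9.73e-05). The proteasome had 11 of 48 higher and 6 lower, the falls led by the interferon-induced Psmb9 and Psme2 (log2 -0.61 ± 0.11 SE, adjusted p = 0.000303), and the rises numbered 4 to 7 without any of 9 single libraries, and 3 with no filter on low counts, with all genes of the table or without the shallowest library of each group. Autophagy and lysosome had 2 of 40 higher and 5 lower, or 4 higher and 4 lower without amino acid replicate 2, with Gabarapl1, a partner of autophagosome membranes, higher (log2 0.95 ± 0.15 SE, adjusted p = 0.000144). Among Bcl2 family genes 3 of 12 rose, Pmaip1, Bid (log2 0.53 ± 0.10 SE, adjusted p = 0.000807) and Mcl1 (log2 0.28 ± 0.10 SE, adjusted p = 0.0417), Mcl1 losing its call in 14 of 20 alternatives. Ccnd2, the cyclin D2 gene induced through STAT5, had 9.13, 14.1 and 19.5 CPM in BCAA-free libraries, against 6.46, 6.72, 7.15 and 5.24 CPM in amino acid libraries (log2 1.13 ± 0.22 SE, adjusted p = 0.000764).

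Footprint and mRNA changes were compared across the 9283 genes tested in both. Across these genes, which come from the same lysates and are not independent, Pearson's r of the log2 changes was 0.69 and Spearman's rho 0.59. Of 1312 genes higher in footprints 85.4% had a higher mRNA value, 102 were called higher in mRNA and 1 lower. Of 1442 genes lower in footprints 83.5% had a lower mRNA value, 159 were called lower in mRNA and 0 higher. Over all genes tested in both, 55.15% had a higher mRNA value. Translational efficiency, the footprint change beyond the mRNA change, was tested with each mouse as a block. Of 9283 genes 0 (0%) passed by edgeR, with 897 at an unadjusted p under 0.05 and 3 passing by limma-voom. For cytosolic ribosomal proteins the median log2 difference in efficiency was 0.52 with 0 of 83 passing by edgeR, by limma-voom or at an unadjusted p under 0.05, against a median of -0.03 over all genes. The median standard error of an efficiency difference was 0.28, about that of the mRNA.

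**Figure D4:**
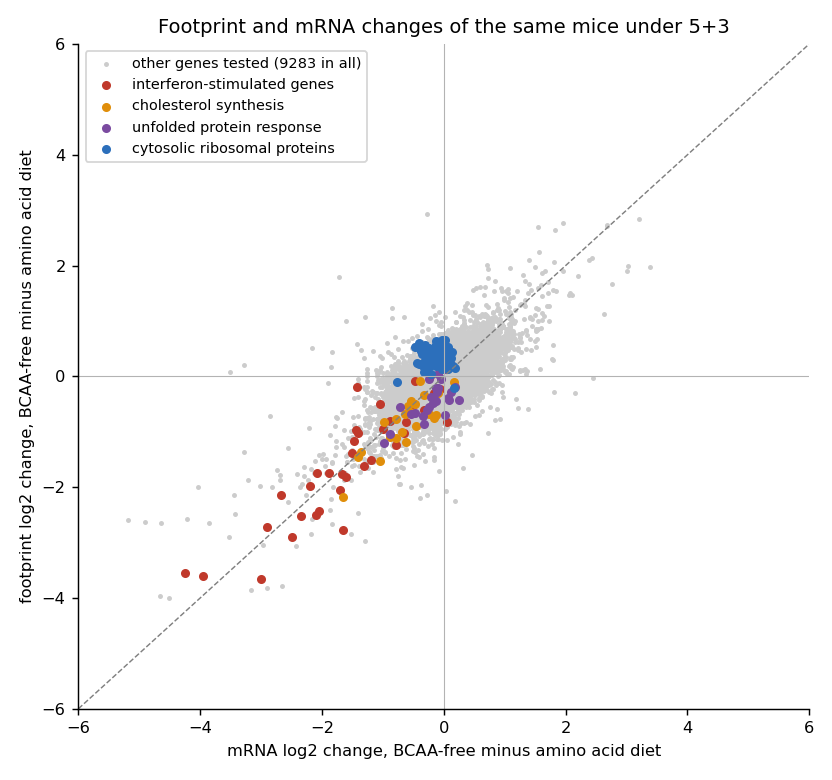
Log2 change of mRNA (x axis) and of footprints (y axis), BCAA-free minus amino acid diet under 5+3, for 9283 genes (grey) with 4 lists in colour and a dashed line of equal change. Interferon-stimulated and cholesterol genes spread along the line, and cytosolic ribosomal proteins sit above 0 in footprints with an mRNA median of -0.13.

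The diet difference under vehicle and the test of the difference between treatments used all 4 groups in 1 fit. Under vehicle 312 of 9893 genes (3.15%) differed between diets, 1.01% higher and 2.14% lower on the BCAA-free diet. The diet difference under 5+3 departed from that under vehicle in 463 of 9893 (4.68%), upward in 1.97% and downward in 2.71%. Of these 463 genes 417 were also called under 5+3, where 29.7% of tested genes were called. Both tests use the 11 libraries under 5+3, so a large overlap is built in. The amino acid vehicle mice carry a suffix in their names that no other group has, so any batch it marks cannot be told apart from that group.

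The lists differed in how they behaved in vehicle mice. Interferon-stimulated genes fell in 10 of 41 tested members under vehicle, and 4 of 41 departed downward. The GTPases fell in 0 of 19 under vehicle, with 0 at an unadjusted p under 0.05 and 0 by limma-voom, and 1 departed, Gbp6, with its call lost in 11 of 16 alternatives (-3.26, adjusted p = 0.0476). Gbp2 averaged 18.3 ± 15.6 CPM on the BCAA-free diet and 246 ± 111 CPM on the amino acid diet under 5+3, and 96.0 ± 58.8 and 154 ± 148 CPM on those diets under vehicle (SD, n = 7, 4, 5 and 5). Its spread between vehicle mice was wide, and its departure did not pass (log2 -3.02, adjusted p = 0.0691). Ifit1 was lower on the BCAA-free diet under vehicle also (-2.28, adjusted p = 0.00106).

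Cholesterol genes departed downward in 12 of 24 members, and 0 of 24 passed under vehicle by edgeR or limma-voom, with 4 lower at an unadjusted p under 0.05. Fdps averaged 116 ± 6.34 CPM on the BCAA-free diet and 321 ± 67.0 CPM on the amino acid diet under 5+3, against 150.1 ± 13.5 and 186 ± 28.8 CPM under vehicle. The departure of Fdps was -1.16 (adjusted p = 3.23e-05) and that of Mvd -2.06 (0.000412). Of the unfolded protein response 9 of 28 departed downward. Hspa5 averaged 1148 ± 256 CPM on the BCAA-free diet and 2107 ± 238 CPM on the amino acid diet under 5+3, and 1357 ± 107 and 1173 ± 134 CPM under vehicle, so the amino acid 5+3 group was the one that stood highest (departure -1.09, adjusted p = 0.000761).

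Cirbp averaged 112 ± 35.8 CPM on the BCAA-free diet and 15.4 ± 2.7 CPM on the amino acid diet under 5+3, and 64.0 ± 19.9 and 41.5 ± 9.92 CPM under vehicle. Its mean under 5+3 lay above both vehicle means on the BCAA-free diet and below both on the amino acid diet (departure 2.19, adjusted p = 0.0103). Srsf5 did likewise, with 424 ± 67.8 and 129.6 ± 12.5 CPM under 5+3 on the BCAA-free and the amino acid diet and 221 ± 47.0 and 254 ± 22.5 CPM under vehicle (departure 1.90, adjusted p = 1.38e-07). Of the red cell list 4 of 6 tested members fell under 5+3, 2 of 8 rose under vehicle and 5 of 8 departed. Hbb-bs averaged 8.71 ± 3.91 CPM on the BCAA-free diet and 54.5 ± 11.1 CPM on the amino acid diet under 5+3, and 76.7 ± 19.0 and 36.2 ± 20.1 CPM under vehicle (departure -3.76, adjusted p = 0.00026).

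Impdh1 and Fbp1 were higher on the BCAA-free diet under vehicle as well (log2 1.81 and 1.10, adjusted p = 0.000333 and 0.0097), while Flt3 did not pass there (2.51, adjusted p = 0.0519). Flt3 averaged 23.8 ± 18.7 CPM on the BCAA-free diet and 3.41 ± 0.702 CPM on the amino acid diet under 5+3, and 23.5 ± 7.69 and 4.2 ± 2.2 CPM under vehicle. Impdh1 averaged 14.8 ± 3.85 and 4.83 ± 2.25 CPM on these diets under 5+3, and 13.0 ± 1.78 and 3.47 ± 1.44 CPM under vehicle. Fbp1 averaged 49.7 ± 17.0 and 11.1 ± 1.63 CPM on these diets under 5+3, and 36.3 ± 3.95 and 17.2 ± 2.8 CPM under vehicle. The departures of Flt3 (log2 0.21, adjusted p = 0.94), Impdh1 (-0.16, 0.859) and Fbp1 (1.03, 0.0812) did not pass, which does not show that the diet differences were equal.

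**Figure D5:**
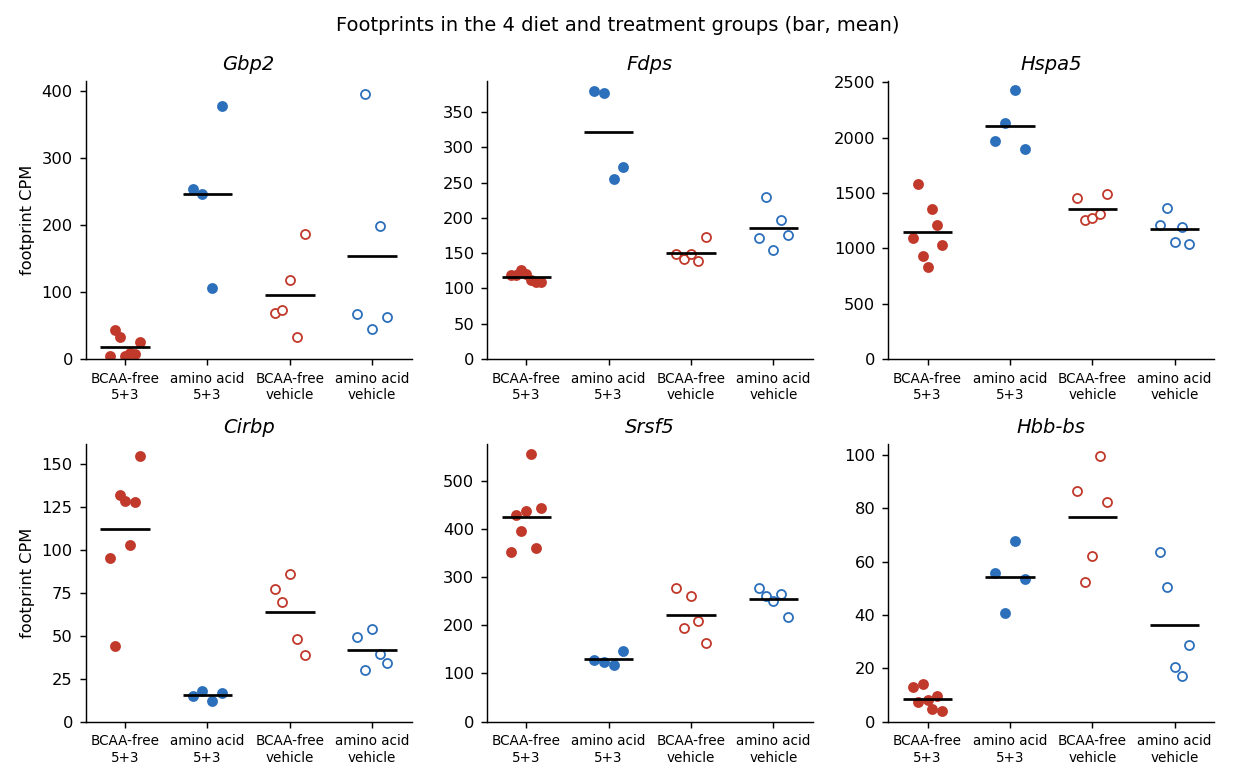
Footprint CPM of 6 genes in the 4 groups, 1 point per library (filled, 5+3; open, vehicle; red, BCAA-free diet; blue, amino acid diet) with a bar at the mean, scaled over all 21 footprint libraries. Under 5+3 the diets are apart in all 6 genes, and under vehicle they lie closer in Fdps, Hspa5, Cirbp and Srsf5. The diet means stand in the opposite order under vehicle in Hspa5, Srsf5 and Hbb-bs.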

How the data were processed

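Ribosome footprints and Smart-seq2 mRNA were made from the same lysates, per the labels' protocols. The deposited tables hold raw counts per gene, whole numbers per the file headers and values. Named in the submitters' processing notes are GRCm38 (mm10), featureCounts, STAR, Bowtie2, SAMtools and cutadapt. The sources used here do not give their versions or roles, the annotation, the use of strand or how reads matching several genes were handled. Of 55487 gene identifiers 99.376% had a symbol, and the 21400 that RefSeq lists as protein-coding were used. Columns were matched to samples by name.

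Counts were filtered (filterByExpr, minimum count 10, minimum total 15), scaled by TMM and tested with edgeR 4.0.16 in R 4.3.3 (robust quasi-likelihood, diet as the only term, Benjamini-Hochberg adjustment over all tested genes, threshold 0.05). CPM are counts scaled by TMM to the same protein-coding library total. Translational efficiency was the interaction of library kind with diet, with mouse as a block. The vehicle comparison and the departure came from 1 fit of the 4 footprint groups. Alternatives used DESeq2 1.42.0 and limma 3.58.1 (limma-voom), other filters and scalings, all genes of the table, and each library left out in turn; limma-voom for translational efficiency was added after the data were seen. The tests were tried on simulated data. Nothing in the labels says that replicates were processed apart, so p-values measure the spread between mice as prepared.

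Replicates of a group differed beyond sampling noise, with a chi-square per degree of freedom of 2.43 to 16.81 over 27 pairs. The study's comparison, members and gene lists were chosen with earlier results of these data known. Genes are named if among the 14 largest rises or falls (mean of at least 10 CPM, 75% of the 28 pairs of mice agreeing in direction), among the 5 smallest adjusted p of a list, or in a panel of amino acid, cell cycle and leukaemia genes. The lists of guanylate-binding and immunity-related GTPases, stefins and skeletal muscle, and the motifs other than TGATGNAA, were added after values were seen. Of the tested genes 232 have a row within 5% or 1 count of their own in every library, so their reads may be counted more than once.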

Additional observations from a re-analysis of the deposited data

Results flagged for a closer look

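Among 314 sets of library values of the named genes (157 genes in up to 2 groups), 13 held a library far from the rest of its group, 7 in BCAA-free and 6 in amino acid libraries. Chance alone gives about 1 such set in 20. Of BCAA-free libraries, replicate 2 was highest in Eif2ak4 (29.25 CPM, others 12.7 to 16.4) and in Ncapg (152.4, others 84.6 to 111.1). Replicate 3 was highest in Csf1r (29.83 CPM, others 9.17 to 16.3) and Mmp9 (36.55, others 3.50 to 14.1). Replicate 5 was lowest in Cebpg (2.934 CPM, others 5.45 to 7.05) and highest in Eif4ebp1 (42.7, others 17.2 to 27.9), and replicate 1 was highest in Lamtor3 (23.97, others 16.0 to 19.2). Of amino acid libraries, replicate 3 was lowest in Zbp1 (9.538 CPM, others 30.4 to 31.6) and Ifit1 (5.246, others 13.3 to 14.1). Replicate 1 was highest in Chil3 (781.9 CPM, others 332 to 375) and Chil4 (345.4, others 135 to 159). Replicate 4 was lowest in Srsf3 (312.9 CPM, others 327 to 329), and replicate 2 was highest in Nap1l5 (224.1, others 9.12 to 31.5).

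The diet difference under 5+3 departed from that under vehicle in 44 of 157 named genes by edgeR's interaction term. Over all tested genes it did so in 463 of 9893 (4.68%). Many genes were named for their difference under 5+3, and the term uses those same 11 libraries. The share among named genes is therefore raised by that choice and is not a separate result. Over the alternatives, 584 values of these departures stayed past the threshold and 120 lost it. Each value here is the log2 change under 5+3 minus that under vehicle with its adjusted p. Downward departures in interferon and globin genes were Gbp6 (-3.26, 0.0476), Irf1 (-1.19, 0.0348), Hba-a1 (-3.42, 0.00153), Hba-a2 (-3.34, 0.00214), Hbb-bs (-3.76, 0.00026) and Hbb-bt (-3.94, 0.00026). In sterol synthesis they were Fdps (-1.16, 3.23e-05), Mvd (-2.06, 0.000412), Stard4 (-0.90, 0.0125), Lss (-1.18, 0.00123) and Sqle (-0.93, 0.0401). Among chaperones and their partners they were Creld2 (-1.12, 0.00338), Pdia4 (-0.46, 0.0419), Hspa5 (-1.09, 0.000761), Syvn1 (-0.99, 0.000896), Sdf2l1 (-0.74, 0.0129), Hsph1 (-2.04, 0.0106) and Dnaja1 (-0.87, 0.00711). Other genes that departed downward were Srsf10 (-0.64, 0.047), Cebpg (-1.53, 0.00198), Cebpe (-0.69, 0.0464), Nprl2 (-0.86, 0.035), Lamtor3 (-0.66, 0.0473), Ncapg (-0.65, 0.0415), Tyms (-0.53, 0.0419), Pfkl (-0.89, 0.0034) and Apaf1 (-0.63, 0.0161). Upward departures in RNA-binding proteins were Cirbp (2.19, 0.0103), Rbm3 (1.09, 0.00026), Srsf5 (1.90, 1.38e-07) and Hnrnpdl (1.20, 0.00582). In ribosome assembly and initiation they were Wdr12 (0.52, 0.00704), Nhp2 (0.66, 0.0161), Pes1 (0.46, 0.0232), Ncl (0.73, 0.00718) and Eif4h (0.39, 0.045). The remaining upward departures were Mthfd1l (0.58, 0.0121), Lars (0.71, 0.0105), Echs1 (0.52, 0.0478), Hmgb3 (0.98, 0.000984), Adss (0.91, 0.000464), Sod1 (0.53, 0.028), Pgrmc1 (1.27, 0.00942) and Haghl (1.25, 0.00777).

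Rows annotated as pseudogenes, which the comparisons leave out, held 27.75% ± 1.75 of footprint counts in BCAA-free libraries and 24.47% ± 1.19 in amino acid libraries (SD, n = 7 and 4). The ranges, 24.7% to 29.5% in BCAA-free libraries and 23.3% to 25.7% in amino acid libraries, overlapped, and a two-sided exact permutation test over 330 splits gave p = 0.0242. Pseudogene rows of ribosomal protein genes such as Rpl10, Rpl3 and Rps6 held nearly the same counts as those genes. The difference is therefore not separate from the ribosomal protein values, and the part of such shared reads in it was not tested.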

How the results depend on the processing

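The 2812 footprint calls ranged from 2105 to 3015 over the other alternatives, with 4484 when all genes of the table were normalised and tested (15032 genes), and from 2083 to 3241 with 1 library left out, highest without BCAA-free replicate 2. The 439 mRNA calls became 1064 by DESeq2, 277 with all 4 groups in 1 fit, 239 without the shallowest library of each group, and 159 (without amino acid replicate 2) to 660 (without BCAA-free replicate 3) with 1 library left out. The share of higher mRNA calls was 32.2% without the shallowest libraries and 34.7% by limma-voom, against 44.9% over all 11 libraries. Translational efficiency gave 85 calls with no filter on low counts, 3 by limma-voom and 0 to 4 with 1 library left out. Departures numbered 1115 with all genes tested and 257 (without amino acid replicate 1) to 762 (without BCAA-free replicate 2) with 1 library left out, and vehicle calls numbered 258 to 436. The cause of these moves was not tested. For named genes called in mRNA, 689 values stayed past the threshold and 121 lost it, and for those called as departures 584 stayed and 120 lost it. Of the values of single genes in footprints 2956 kept their direction and side of the threshold, 149 lost the threshold, 10 gained it and 17 changed sign, all of these in 3 genes that did not pass. Vars was -0.0096 with all genes and -0.0021 to 0.1357 with 1 library left out. Sesn2 was -0.0579 without the shallowest libraries, -0.0421 by limma-voom, -0.0253 with all genes, and -0.0785 to 0.1632 with 1 left out. Meis1 was -0.0079 with no filter, -0.0374 without the shallowest libraries, -0.0685 with all genes, and -0.0487 to 0.0597 with 1 left out. Replicate numbers 1 to 4 are shared between the groups. Same-numbered libraries deviated from their group means with r of -0.087 to 0.044, against -0.195 to 0.17 for other pairs. So few same-numbered pairs cannot show whether the numbers mark a shared handling of mice. With the replicate number as a block, which leaves replicates 5 to 7 of the BCAA-free diet with no partner, footprint calls were 1786, mRNA calls 186 and departures 272. In that fit Sesn2 was -0.1295, and 4 of 18 GTPases, 20 of 37 interferon-stimulated genes and 38 of 85 ribosomal proteins passed. Stefins had 0 of 9 lower, mature neutrophil markers 1 of 18 lower, and G2 and mitosis 2 of 40 lower and 3 higher. Oxidative phosphorylation had 8 of 80 higher, and mitochondrial ribosomal proteins 9 of 82 higher and 1 lower. The planned amino acid composition of footprints was not run, since no protein sequences were used here. Depth limits low genes: Bcat1 and Ddit3 were under the filter.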
